A study of Mus musculus with 143 samples.

Results

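Messenger RNA that is to be destroyed from its 5′ end first loses its cap and is then degraded base by base, and RNA whose tail has been shortened can be marked by added uridines. The 9 genes described here encode that machinery: the decapping enzyme Dcp2 and its partners Dcp1a and Dcp1b, the decapping enhancers Edc3 and Edc4, the 5′-to-3′ exoribonucleases Xrn1 and Xrn2, and the terminal uridyltransferases Tut4 and Tut7. They were taken by name from the 55573 gene IDs of the poly(A) counts and the 55487 of the RiboMinus counts, and all 9 were found in both and passed the low-count filter in the fits that gave the results, while 1 was filtered out when GV3h groups were fitted alone.

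DCP2 removes the cap, DCP1 proteins activate it, and EDC3 and EDC4 hold the decapping complex together. XRN1 is the main cytoplasmic nuclease that degrades decapped RNA, while XRN2 works in the nucleus, where it also helps RNA polymerase II to stop transcribing. TUT4 and TUT7 add uridines to the ends of RNAs with short tails. A growing oocyte stores its mRNA and clears much of it at meiotic maturation, and uridylation by TUT4 and TUT7 is known to shape the maternal transcriptome of mice. DCP1A and DCP2 are also known to be made in larger amounts as the mouse oocyte matures.

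The study asked what follows in mouse oocytes when the RNA exosome, which degrades RNA from the 3′ end, loses its nucleases DIS3 and EXOSC10. Single oocytes from control and conditional knockout (cKO) females were sequenced, and each library was 1 oocyte. Poly(A) sequencing covered germinal vesicle (GV) oocytes, which are fully grown and arrested in prophase, GV oocytes of the 3 h culture group (GV3h) and metaphase II (MII) eggs from superovulated females. Each stage had 8 control libraries, and the Dis3 cKO groups had 15, 16 and 16. RiboMinus sequencing, which removes ribosomal RNA and reads RNA with or without a tail, covered GV oocytes of adult females (control and Dis3 cKO) and oocytes taken at postnatal day 20 (p20), which were control, Dis3 cKO, Exosc10 cKO or double knockout (dcKO). Each of these 6 groups had 8 libraries. Mutant mice were built with CRISPR/Cas9 per the labels. Strain, the age of adult females and the Cre driver of the conditional alleles are not given in the sources used here, nor is it said which oocytes came from the same female, so the p-values measure the spread between oocytes. The title of each RiboMinus library carries 1 of 2 tags per group, with 4 libraries per tag, and the labels do not say what a tag is.

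The 71 poly(A) libraries held 4843964 to 15412200 reads counted in genes and the 48 RiboMinus libraries 8492102 to 35429028, and the p20 dcKO libraries (8492102 to 14246463) were shallower than the p20 control libraries (16043788 to 19702270). CPM are counts per 1000000 after scaling of libraries to their gene counts by the TMM method. Dis3 fell in all 3 Dis3 cKO poly(A) groups, in the adult and p20 RiboMinus Dis3 cKO groups and in the dcKO, with log2 fold changes of -2.18 to -3.63, and Exosc10 fell by 5.22 on the log2 scale in Exosc10 cKO and by 4.01 in dcKO (edgeR's quasi-likelihood test, Benjamini-Hochberg adjustment, as for every adjusted p given for a single gene). Among RiboMinus controls, Dis3 itself stood apart by tag. Adult controls had 19.7 to 22.54 CPM in AM1758 and 8.9 to 12.06 CPM in AM1759. At p20 controls had 15.71 to 20.06 CPM in tag 1 and 6.199 to 12.1 CPM in tag 2. This difference between control tags was not tested. The summed level of 10 oocyte markers was 11640 to 26660 CPM in poly(A) and 7917 to 16290 CPM in RiboMinus libraries. That of 10 granulosa and cumulus markers was 43.0 to 176 and 84.5 to 202 CPM, that of 5 theca and stroma markers at most 43.2 CPM and that of 4 blood markers at most 2.91 CPM. MII Dis3 cKO egg 15 stood apart, with a ratio of gene counts to ERCC spike-in counts of 14.4 against 48.6 to 81.0 in the other 15 eggs of its group. Results with ERCC scaling at MII that depend on it are given with and without it.

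Of the 9 genes, 8 have a start in the RefSeq promoter table (GRCm38.p6, the assembly behind the build mm10 named in the submitters' processing notes). The 250 bases before the start are shown for the 4 genes on which the results turn most and that the table holds: Xrn1, which fell in adult Dis3 cKO groups and in dcKO, Edc3 and Tut4, which rose in dcKO, and Dcp1b, which had H3K27me3 peaks at its start. Capitals mark matches to one of 3 promoter motifs searched on both strands. The GC box was searched as GGGCGG on the printed strand and as its complement CCGCCC for the opposite one. The CCAAT box was searched by that name's letters on each strand, and the TATA box by the letters TATAAA on each strand. All 4 windows are on the forward strand. They end at the start given in the promoter table. For Xrn1 and Edc3 that lies inside the annotated gene span, which begins at 95954750 and 57708540.
Xrn1, chr9:95954510-95954759: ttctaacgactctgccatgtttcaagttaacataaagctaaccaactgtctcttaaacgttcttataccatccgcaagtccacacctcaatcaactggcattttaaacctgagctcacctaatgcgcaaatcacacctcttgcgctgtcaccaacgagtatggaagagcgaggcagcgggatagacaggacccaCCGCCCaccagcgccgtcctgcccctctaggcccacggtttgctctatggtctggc
Edc3, chr9:57708319-57708568: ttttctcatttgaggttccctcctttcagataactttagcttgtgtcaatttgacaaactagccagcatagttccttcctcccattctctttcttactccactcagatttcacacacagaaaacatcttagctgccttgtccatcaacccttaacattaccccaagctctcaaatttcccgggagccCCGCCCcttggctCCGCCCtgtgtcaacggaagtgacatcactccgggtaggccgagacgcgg
Tut4, chr4:108459160-108459409: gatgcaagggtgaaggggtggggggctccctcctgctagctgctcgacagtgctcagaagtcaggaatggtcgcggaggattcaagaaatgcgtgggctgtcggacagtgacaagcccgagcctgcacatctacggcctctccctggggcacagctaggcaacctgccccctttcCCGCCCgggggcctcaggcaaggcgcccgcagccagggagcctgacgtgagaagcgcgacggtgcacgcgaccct
Dcp1b, chr6:119175003-119175252: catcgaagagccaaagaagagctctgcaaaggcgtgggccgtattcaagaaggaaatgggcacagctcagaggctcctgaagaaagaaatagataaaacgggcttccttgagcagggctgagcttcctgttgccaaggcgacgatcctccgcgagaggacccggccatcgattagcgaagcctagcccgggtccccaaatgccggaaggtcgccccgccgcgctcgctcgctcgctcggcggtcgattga
Tut4 has a second start in the table (window chr4:108459758-108460007, not printed), which holds no GC box, 1 CCAAT box and 11 CpG dinucleotides, and the first is shown. Edc3 holds 2 GC boxes, Xrn1 and the printed window of Tut4 hold 1 each, and Dcp1b has no match to any of the 3 motifs. Of 21263 such windows of protein-coding genes, 42.6% hold a GC box, 35.4% a CCAAT box and 11.6% a TATA box. The window of Dcp1b holds 23 CpG dinucleotides, that of Tut4 17, that of Xrn1 12 and that of Edc3 8, and the median over 17492 protein-coding genes is 10 (quartiles 3 and 19).

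Some of the genes share their span with another gene in that annotation. Dcp1a (ENSMUSG00000021962) is on chromosome 14 from 30479486 to 30527056 and overlaps Cacna1d and Gm35566, and Dcp1b (ENSMUSG00000041477) is on chromosome 6 from 119175253 to 119221614 and overlaps Cacna1c. Xrn1 (ENSMUSG00000032410), on chromosome 9 from 95954750 to 96057806, overlaps the lncRNA Gm16794. Tut4 (ENSMUSG00000034610), on chromosome 4 from 108459410 to 108559415, overlaps Gm12739 and small RNAs, and Tut7 (ENSMUSG00000035248), on chromosome 13 from 59771876 to 59823169, overlaps Etohd2. Dcp2 (ENSMUSG00000024472), Edc3 (ENSMUSG00000038957), Edc4 (ENSMUSG00000036270) and Xrn2 (ENSMUSG00000027433) overlap no other gene there. Whether counting used strand is not given in the sources used here, so reads of overlapping genes cannot be told apart in the deposited counts.

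Xrn1 was lower in Dis3 cKO than in control oocytes at every adult stage and in both assays. In GV oocytes its level ran from 42.05 to 76.2 CPM (median 59.5) in 8 controls and from 16.55 to 44.7 CPM (median 25.1) in 15 knockouts, and 1 knockout oocyte was above the lowest control. In GV3h oocytes it ran from 36.3 to 54.2 CPM (median 42.2) in controls and from 9.16 to 37.2 CPM (median 20.03) in knockouts, with the highest knockout oocyte just above the lowest control. In MII eggs the controls (67.8 to 131 CPM, median 88.3) and the knockouts (14.3 to 46.1 CPM, median 31.4) did not overlap.

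The level of Xrn1 fell 2.15-fold in GV oocytes (log2 fold change -1.10 ± 0.17 SE, adjusted p = 3.23e-07), 2.09-fold in GV3h oocytes (-1.07 ± 0.17, adjusted p = 2.92e-07) and 2.95-fold in MII eggs (-1.56 ± 0.16, adjusted p = 1.86e-12). The fall in MII eggs differed from that in GV oocytes by -0.46 on the log2 scale, which did not pass the test (95% interval -0.93 to 0.01, adjusted p = 0.207) and was 0.17 with ERCC scaling (adjusted p = 0.654). Scaling to the ERCC spike-in RNAs left all 3 falls called, at -1.40, -1.14 and -1.23. The summed level of the 10 granulosa and cumulus markers had a lower median in knockouts at each stage, though single markers went both ways. The sum ran from 97.4 to 176 CPM in control and 69.1 to 158 CPM in Dis3 cKO GV oocytes, 71.3 to 110.0 and 43.0 to 88.9 CPM in GV3h oocytes, and 104.0 to 144 and 58.6 to 94.3 CPM in MII eggs. Among the markers Cyp19a1 had medians of 34.1 CPM in control and 13.6 CPM in Dis3 cKO at GV, 40.7 and 10.7 CPM at GV3h and 63.0 and 27.5 CPM at MII. Inha had medians of 20.6 and 4.84 CPM at GV but 1.3 and 3.92 CPM at GV3h. Fshr was higher in Dis3 cKO at GV (0.928 and 1.4 CPM) and GV3h (0.0569 and 1.39 CPM). Nr5a2 had 41.9 and 44.0 CPM at GV, 36.0 and 36.9 CPM at GV3h and 30.6 and 35.1 CPM at MII. Kitl had 13.8 and 12.2 CPM, 9.03 and 11.6 CPM, and 15.7 and 9.65 CPM at the same stages. Ptx3 was at 0 in every poly(A) library. Amh, Foxl2, Fshr and Inha had a median of 0 in both MII groups. The 5 theca and stroma markers were higher in Dis3 cKO, with summed medians of 2.55 and 5.91 CPM at GV, 2.41 and 7.50 CPM at GV3h and 2.20 and 6.21 CPM at MII in control and knockout, and of 0.958 and 3.16 CPM in adult RiboMinus libraries. In adult RiboMinus libraries, where Xrn1 fell too, the granulosa sum was not lower in knockouts, with medians of 114.9 CPM in control and 120.7 CPM in Dis3 cKO. The part of both marker lists in the result was not tested.

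RiboMinus libraries of adult GV oocytes showed a smaller fall. Xrn1 ran from 76.0 to 111 CPM (median 94.7) in controls and from 41.3 to 77.6 CPM (median 65.5) in Dis3 cKO, with the highest 2 knockout oocytes above the lowest control. The fall was 1.44-fold (log2 fold change -0.53 ± 0.11 SE, adjusted p = 0.00149). With each pair of tags as the replicates, by summing the 4 libraries of a tag, the value was -0.55 with an adjusted p of 0.168. The size of the fall in poly(A) against RiboMinus data was not tested, and loss of the tail and loss of the RNA cannot be told apart in the poly(A) data alone.

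At p20 Xrn1 fell in dcKO, while its value in Exosc10 cKO did not pass the test and a small rise in Dis3 cKO depended on the scaling. Control oocytes ran from 79.9 to 131 CPM (median 98.2), Dis3 cKO from 103 to 154 (median 133), Exosc10 cKO from 67.3 to 107 (median 91.96) and dcKO from 39.7 to 66.4 (median 53.9). All 8 dcKO oocytes lay below all control, Dis3 cKO and Exosc10 cKO oocytes, and the other 3 groups overlapped each other.

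In dcKO the level of Xrn1 fell 1.83-fold against control (log2 fold change -0.87 ± 0.12 SE, adjusted p = 1.76e-07), and it was lower than in Dis3 cKO by -1.25 (adjusted p = 2.26e-10) and than in Exosc10 cKO by -0.75 (adjusted p = 3.42e-06). All 3 calls held with ERCC scaling and with either dcKO tag left out. In Exosc10 cKO the difference from control was -0.13 (95% interval -0.36 to 0.10, adjusted p = 0.582). In p20 Dis3 cKO the test gave a rise of 0.38 ± 0.12 (adjusted p = 0.0381), which ERCC scaling brought to 0.03 (adjusted p = 0.928) and which lost its call in 11 of 16 fits that left out 1 oocyte, with adjusted p up to 0.0924. The Dis3 effect in adult oocytes minus that at p20 was -0.93 ± 0.17 (adjusted p = 0.000108), -1.13 with ERCC scaling (adjusted p = 0.00676) and -0.92 with counts summed per tag (adjusted p = 0.113).

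**Figure D1:**
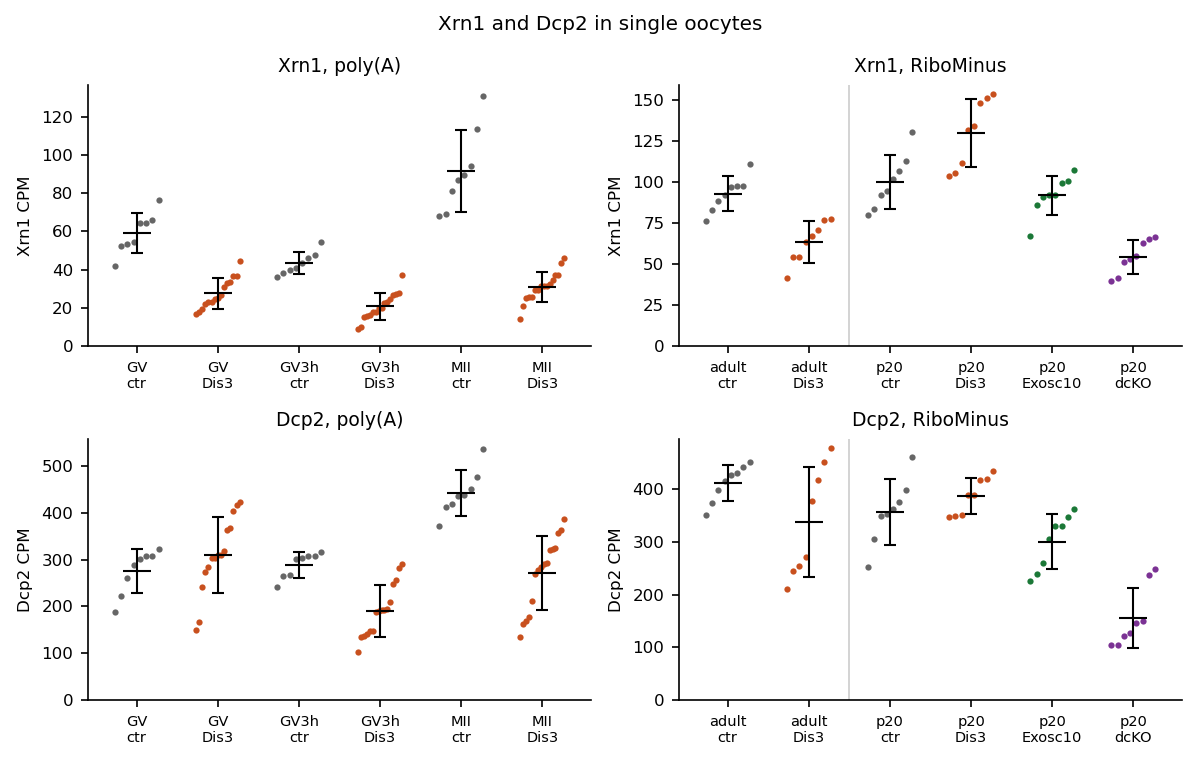
Level of Xrn1 and Dcp2 in each oocyte (points ordered by value within a group, CPM, linear axes from 0) in poly(A) libraries (left) and RiboMinus libraries (right). Bars give the mean and SD of each group; grey is control, orange Dis3 cKO, green Exosc10 cKO and purple dcKO. MII control and knockout eggs do not overlap in Xrn1, and p20 dcKO oocytes lie below all p20 control oocytes in both genes.

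Xrn2, the nuclear relative, had smaller differences. In GV oocytes it ran from 128.5 to 179 CPM in controls and from 106 to 155.5 CPM in Dis3 cKO with overlap, and the difference of -0.22 ± 0.09 SE missed the test (adjusted p = 0.0528) but passed with ERCC scaling (-0.49, adjusted p = 0.0137). It fell by 0.31 on the log2 scale in GV3h oocytes (adjusted p = 0.0022, and 0.0504 with ERCC scaling) and by 0.21 in MII eggs (adjusted p = 0.0351), the latter turning to 0.14 with ERCC scaling (adjusted p = 0.492). In adult RiboMinus libraries it was higher in knockouts by 0.24 ± 0.07 (adjusted p = 0.0176), which turned to -0.31 with ERCC scaling (adjusted p = 0.165), and none of the 3 p20 knockouts passed the test against control.

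The ratio of Xrn1 to Xrn2 counts within 1 oocyte does not depend on how libraries are scaled. On the log2 scale its median was -1.37 in control and -2.32 in Dis3 cKO GV oocytes, -1.77 and -2.56 in GV3h oocytes and -1.80 and -3.12 in MII eggs, where the groups did not overlap. Among RiboMinus groups it was -0.57 in adult control and -1.26 in adult Dis3 cKO, again without overlap. At p20 it was -0.34 in control, -0.09 in Dis3 cKO, -0.50 in Exosc10 cKO and -1.20 in dcKO, and each dcKO oocyte (-1.851 to -0.758) was below each control oocyte (-0.62 to 0.361). The numbers compare groups only, since read counts of 2 genes also differ by their lengths.

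**Figure D2:**
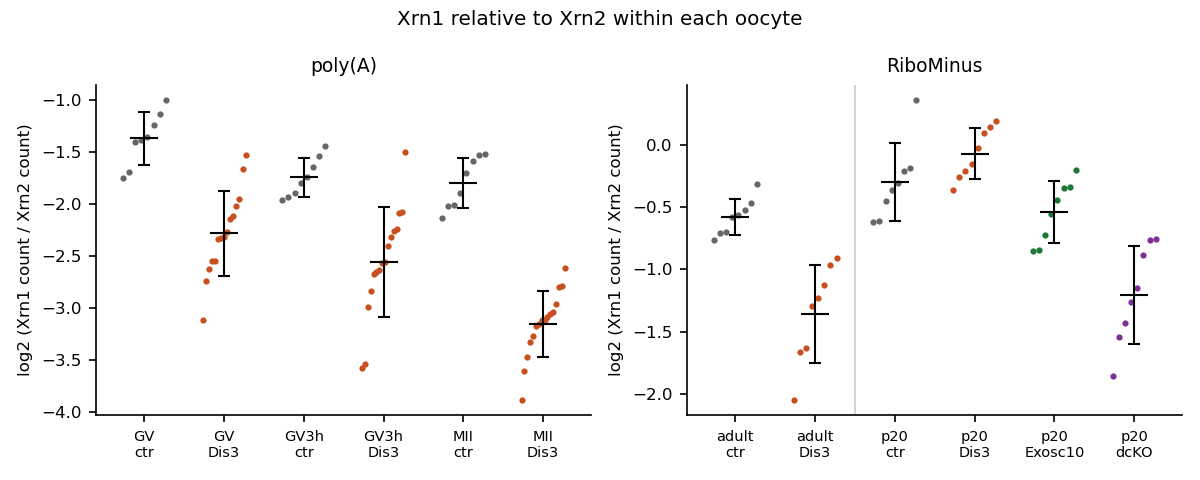
Log2 ratio of Xrn1 to Xrn2 read counts in each oocyte (points, ordered by value within a group), with the mean and SD of each group (bars), in poly(A) (left) and RiboMinus libraries (right); colours are as for the levels of Xrn1. MII Dis3 cKO eggs (-3.885 to -2.618) lie below all MII controls (-2.133 to -1.515), and p20 dcKO oocytes lie below all p20 controls.

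Dcp2, the decapping enzyme, did not pass the test in Dis3 cKO GV oocytes but fell at the later stages. In GV oocytes it ran from 188 to 322 CPM (median 295) in controls and from 150 to 422 CPM (median 309) in knockouts, with a log2 difference of 0.17 (95% interval -0.14 to 0.48, adjusted p = 0.505). In GV3h oocytes it ran from 241.5 to 317 CPM (median 302.5) in controls and from 103 to 291 CPM (median 190) in knockouts. In MII eggs the controls had 373 to 537 CPM (median 437) and the knockouts 136 to 386 CPM (median 288), so that 15 of 16 knockout eggs were below all controls.

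The fall was 0.60 ± 0.15 SE on the log2 scale in GV3h oocytes (adjusted p = 0.00116) and 0.71 ± 0.15 in MII eggs (adjusted p = 0.00012). The Dis3 effect in MII eggs differed from that in GV oocytes by -0.87 ± 0.22 (adjusted p = 0.00425) and that in GV3h oocytes by -0.77 ± 0.22 (adjusted p = 0.0479). Dcp2 was the only 1 of the 9 genes called in either difference of effects by gene-count scaling, where 13.2% and 2.04% of all genes were called. With ERCC scaling the MII difference called Dcp1a, Edc4 and Xrn2, all higher, where 5237 of 17389 genes were called, 5116 of them higher. Without egg 15 it called 5 of the 9, all higher, where 7252 of 17365 genes were called, 7116 of them higher. With ERCC scaling the fall in GV3h oocytes stayed called (-0.66, adjusted p = 0.00998) and the fall in MII eggs did not (-0.31, adjusted p = 0.228). Neither difference from the GV effect passed with that scaling (-0.20 for MII and -0.55 for GV3h, adjusted p = 0.621 and 0.429). Without control GV library 1, which was the lowest control in Dcp2 at 188 CPM, the GV3h difference was -0.74 (adjusted p = 0.0553). Within the MII knockout group, the eggs numbered 12 to 16 had 136 to 211 CPM and those numbered 1 to 11 had 268 to 386 CPM, a split seen after the values were examined and tied to nothing in the labels but the number. With the libraries numbered 1 to 8 alone the MII fall was -0.43 (adjusted p = 0.0119), and its difference from the GV effect was -0.455 and lost its call (adjusted p = 0.128).

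Adult RiboMinus libraries gave no call for Dcp2 (351 to 451 CPM in controls, 210 to 477 in Dis3 cKO, log2 difference -0.26, adjusted p = 0.177). The 2 knockout tags stood apart, with 210 to 272 CPM in the 4 oocytes of AM1713 and 378 to 477 CPM in the 4 of AM1757. Against both control tags the difference was -0.72 for AM1713 (adjusted p = 1.05e-05) and 0.06 for AM1757 (adjusted p = 0.623), and ERCC scaling called the fall over all 8 knockouts (-0.86, adjusted p = 0.00118).

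In p20 dcKO oocytes Dcp2 ran from 104 to 248.7 CPM (median 137), against 252 to 461 CPM (median 357.5) in control, 348.0 to 433.5 CPM in Dis3 cKO and 227 to 362 CPM in Exosc10 cKO. The dcKO group lay below all control and Dis3 cKO oocytes and overlapped Exosc10 cKO. Dcp2 fell 2.29-fold against control (log2 fold change -1.19 ± 0.15 SE, adjusted p = 4.59e-08), and the dcKO tags had 104 to 128 and 146.5 to 248.7 CPM. It was lower in dcKO than in Dis3 cKO by -1.32 (adjusted p = 1.01e-08) and than in Exosc10 cKO by -0.94 (adjusted p = 3.4e-06), while neither single knockout passed against control (0.12 and -0.25, adjusted p = 0.717 and 0.339).

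Dcp1a is the activator partner of Dcp2. In GV3h oocytes it ran from 937.5 to 1327 CPM in controls and from 603 to 1084 CPM in Dis3 cKO with overlap, and fell by 0.46 ± 0.11 SE on the log2 scale (adjusted p = 0.000734). In GV oocytes (-0.17, adjusted p = 0.317), MII eggs (-0.095, adjusted p = 0.53) and adult RiboMinus libraries (-0.23, adjusted p = 0.0631) the difference did not pass, although ERCC scaling called it in the last (-0.77, adjusted p = 0.00167). In p20 dcKO it ran from 1149 to 1698 CPM against 1579 to 3005 CPM in control, again with overlap, and fell by 0.61 ± 0.11 (adjusted p = 1.14e-05), and neither single knockout passed (-0.159 and -0.175, adjusted p = 0.434 and 0.358).

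Dcp1b was read at low counts, with group medians of 14 to 100 reads, and its oocytes scattered widely. Adult RiboMinus oocytes ran from 1.17 to 7.63 CPM (median 3.68) in control and from 0.112 to 3.92 CPM (median 2.10) in Dis3 cKO, a log2 difference of -1.10 ± 0.47 SE that did not pass (adjusted p = 0.088) but did with ERCC scaling (-1.57, adjusted p = 0.0113). At p20 control oocytes ran from 1.58 to 2.74 CPM (median 2.42) and Dis3 cKO oocytes from 2.685 to 8.11 CPM (median 4.17), a difference of 0.93 ± 0.34 that did not pass either (adjusted p = 0.0935). The difference between these 2 effects was -2.04 ± 0.56 (adjusted p = 0.014), -2.15 with ERCC scaling (adjusted p = 0.0252) and -2.05 with counts summed per tag (adjusted p = 0.267). Dcp1b was lower in dcKO than in p20 Dis3 cKO by -1.27 (adjusted p = 0.00249) and did not differ from control beyond the test in dcKO (-0.34, adjusted p = 0.418).

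Edc4, the scaffold of the decapping complex, was lower in Dis3 cKO oocytes before maturation. In GV oocytes it ran from 318 to 403 CPM in controls and from 227 to 472 CPM in knockouts, and in GV3h oocytes the controls (389 to 498 CPM) and knockouts (299 to 385 CPM) did not overlap. The falls were 0.35 ± 0.12 SE (adjusted p = 0.0189) and 0.36 ± 0.11 (adjusted p = 0.00789) on the log2 scale, and with ERCC scaling the first was -0.59 (adjusted p = 0.0401) and the second -0.39 (adjusted p = 0.17). MII knockout eggs ran from 118 to 541 CPM around the controls (363 to 443 CPM), with a difference of 0.10 (adjusted p = 0.506). With ERCC scaling it was 0.52 (adjusted p = 0.0521), and 0.61 (adjusted p = 0.00253) without egg 15 as well. The lowest of them, egg 15 at 118 CPM, decided the comparison of stages: the effect at MII minus that at GV was 0.45 (adjusted p = 0.0539) with it and 0.52 (adjusted p = 0.00101) without it, and 1.11 with it and ERCC scaling (adjusted p = 0.00509, and 5.85e-05 without it).

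In RiboMinus libraries Edc4 ran from 452 to 592 CPM in adult controls and from 283 to 477 CPM in Dis3 cKO, a fall of 0.39 ± 0.09 SE on the log2 scale (adjusted p = 0.00219) that held with ERCC scaling (-0.91, adjusted p = 0.00132) and was -0.42 with counts summed per tag (adjusted p = 0.224). In p20 dcKO oocytes (293 to 454 CPM) it lay below all controls (467 to 562 CPM) and fell by 0.46 ± 0.10 (adjusted p = 0.000217, and 0.0679 with ERCC scaling). In Exosc10 cKO the difference of -0.305 ± 0.10 missed the test (adjusted p = 0.0544), and DESeq2 called it (adjusted p = 0.0399).

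Edc3, the other enhancer, did not pass the test in any Dis3 cKO group, adult or p20, although in MII eggs (-0.31, adjusted p = 0.101) it did so once egg 15 was left out (-0.42, adjusted p = 0.0115). In adult RiboMinus libraries it ran from 2.60 to 4.75 CPM in control and from 2.02 to 4.68 CPM in Dis3 cKO (log2 difference -0.10, 95% interval -0.50 to 0.30, adjusted p = 0.767). In dcKO it ran from 4.77 to 16.7 CPM (median 12.8), against 2.05 to 7.38 CPM (median 3.06) in p20 control, 3.03 to 6.56 CPM in Dis3 cKO and 2.54 to 8.73 CPM in Exosc10 cKO. Of the 8 dcKO oocytes, 7 were above all controls.

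The rise of Edc3 in dcKO was 3.34-fold (log2 fold change 1.74 ± 0.27 SE, adjusted p = 2.04e-06). It was higher than in Dis3 cKO by 1.39 (adjusted p = 6.06e-05) and than in Exosc10 cKO by 1.40 (adjusted p = 5.46e-05). These calls held with ERCC scaling, with counts summed per tag against control (1.69, adjusted p = 0.00535) and without dcKO tag 1, whose oocytes had 12.65 to 16.7 CPM against 4.77 to 13.02 CPM in tag 2 (1.29 without it, adjusted p = 0.00162). The level rested on 65 to 253 reads in dcKO and 39 to 150 in control.

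Tut4 was also read at low counts and showed the largest rise among the 9 genes in dcKO. Control p20 oocytes ran from 0.0585 to 2.67 CPM (median 1.08), Dis3 cKO from 0.0705 to 2.83 (median 1.34), Exosc10 cKO from 0.181 to 8.43 (median 3.21) and dcKO from 2.35 to 23.4 (median 5.12). The 4 dcKO oocytes of tag 1 had 23.2, 23.4, 19.7 and 4.73 CPM, and those of tag 2 had 2.35, 5.52, 4.18 and 2.48 CPM, so that 6 of 8 dcKO oocytes were above all controls.

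The rise against control was 8.29-fold (log2 fold change 3.05 ± 0.63 SE, adjusted p = 0.000125), and 2.74 on the log2 scale with ERCC scaling (adjusted p = 0.000402). Without tag 1 it was 1.47 (adjusted p = 0.0827), and without tag 2 it was 3.76 (adjusted p = 1.34e-05). Tut4 was higher in dcKO than in Dis3 cKO by 3.03 (adjusted p = 0.000187, and 1.45 with adjusted p = 0.0989 without tag 1). Against Exosc10 cKO it was higher by 1.58 (adjusted p = 0.026), a value that fell to -0.003 (adjusted p = 0.999) without tag 1. The Exosc10 cKO difference from control of 1.47 ± 0.61 did not pass (adjusted p = 0.147).

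In poly(A) libraries Tut4 was the only one of the 9 genes called between control GV3h and GV oocytes, where 2.71% of 17389 genes were called. It ran from 0.830 to 13.4 CPM (median 5.38) in control GV oocytes, from 0 to 1.35 CPM (median 0.510) in control GV3h oocytes and from 0.108 to 2.97 CPM (median 0.970) in control MII eggs. The fall was 3.47 ± 0.67 SE on the log2 scale in GV3h oocytes (adjusted p = 0.00123, and 0.0093 with ERCC scaling), and 1 GV3h control oocyte had no read. The summed granulosa list was lower in the same comparison, with a median of 116 CPM in control GV and 85.8 CPM in control GV3h oocytes. Inha had medians of 20.6 and 1.3 CPM and Foxl2 of 0.57 and 0 CPM. Cyp19a1 went the other way, with 34.1 and 40.7 CPM. The part of these markers in the result was not tested. Control GV oocytes had 8 to 101 reads of Tut4 and overlapped GV3h oocytes at the lower end. Dis3 cKO did not pass at any stage (-0.97, 0.69 and 0.21 at GV, GV3h and MII, adjusted p = 0.175, 0.357 and 0.783).

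Tut7, its paralogue, ran from 40.2 to 54.8 CPM in control GV oocytes, and no poly(A) comparison of Dis3 cKO with control passed (-0.10, -0.05 and -0.11 at GV, GV3h and MII, adjusted p = 0.703, 0.807 and 0.555). In adult RiboMinus libraries it was higher in Dis3 cKO (49.85 to 74.3 CPM against 50.4 to 62.0 CPM), by 0.25 ± 0.08 SE (adjusted p = 0.0343), which turned to -0.31 with ERCC scaling (adjusted p = 0.189) and lost its call in 9 of 16 fits that left out 1 oocyte. In dcKO it ran from 42.5 to 135 CPM against 39.95 to 61.6 CPM in p20 control, a difference of 0.38 ± 0.16 (adjusted p = 0.0443, and 0.338 with ERCC scaling). The call was lost in 9 of 16 fits that left out 1 oocyte, some of them without a control oocyte. Without the single dcKO oocyte at 135 CPM, the second of tag 1, the value was 0.14 (adjusted p = 0.375).

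**Figure D3:**
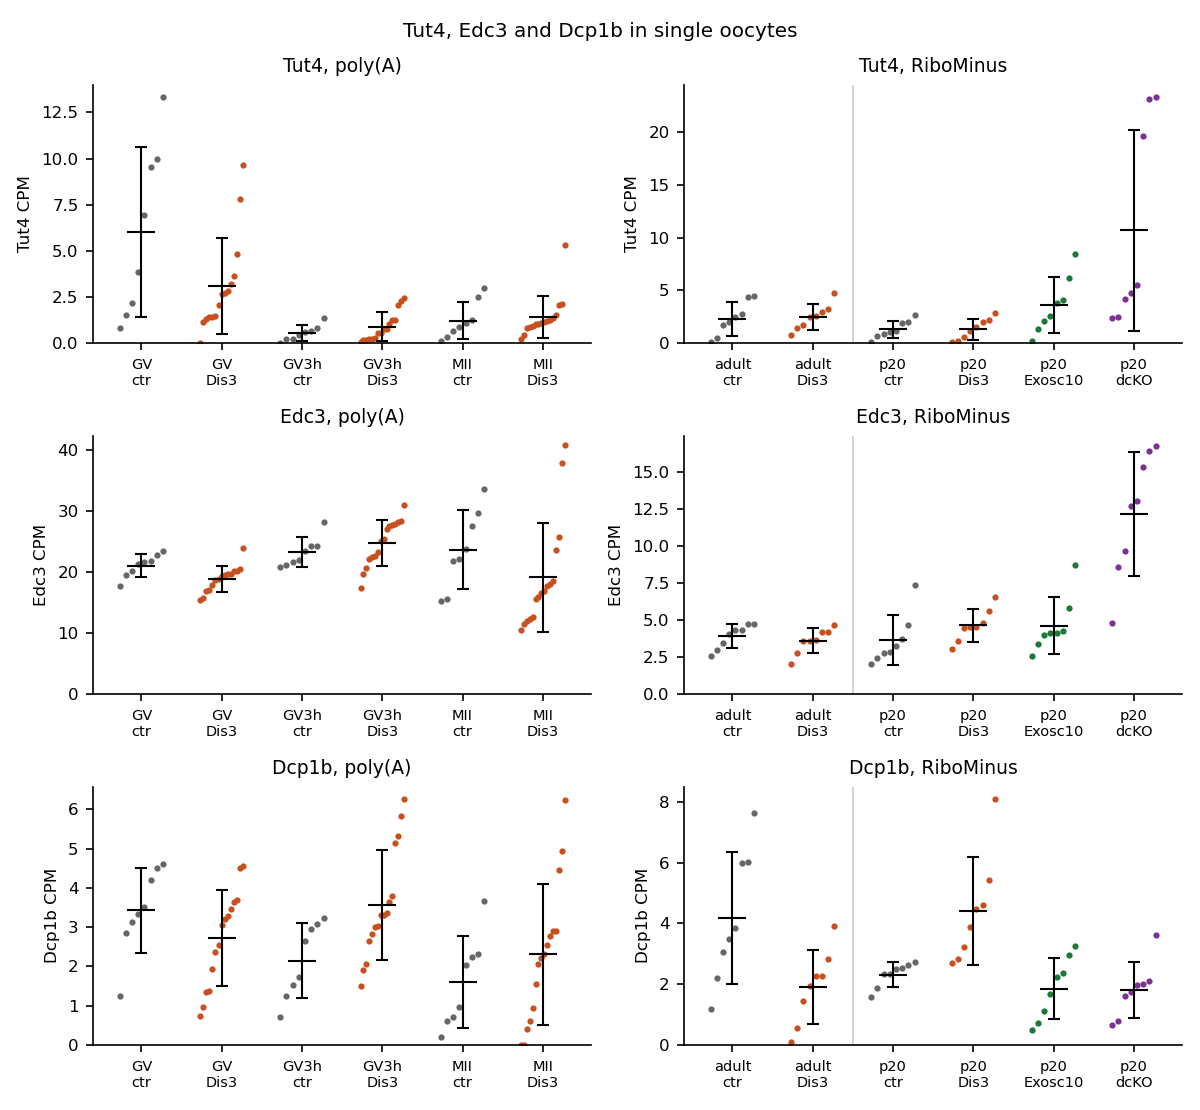
Level of Tut4, Edc3 and Dcp1b in each oocyte (points ordered by value within a group, CPM, linear axes from 0), with the mean and SD of each group (bars), in poly(A) (left) and RiboMinus libraries (right); colours are as for Xrn1. In dcKO, 3 oocytes carry Tut4 at 19.7 to 23.4 CPM and the other 5 have at most 5.52 CPM, while 7 of 8 dcKO oocytes are above all p20 controls in Edc3.

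Read over the 9 genes, Dis3 cKO called 2 (Edc4 and Xrn1, both lower) in GV oocytes, where 21.9% of 17389 genes were called. It called 5 in GV3h oocytes (Dcp1a, Dcp2, Edc4, Xrn1 and Xrn2, all lower), where 38.6% were called, and 3 in MII eggs (Dcp2, Xrn1 and Xrn2, all lower), where 42.1% were called. With ERCC scaling these counts were 3, 3 and 1, where 20.6%, 28.2% and 41.9% of all genes were called. Without egg 15 the last was 3 (Xrn1 lower, Dcp1b and Edc4 higher), where 8579 of 17365 genes were called, 7854 of them higher and 725 lower. Genes called lower made up 8.33%, 15.7% and 14.8% of all genes (13.3%, 10.6% and 4.31% with ERCC scaling), and the median log2 fold change of the 9 genes was -0.22, -0.31 and -0.11, against 0.035, 0.067 and 0.16 over all genes. With ERCC scaling the medians were -0.491, -0.376 and 0.219, against -0.235, 0.043 and 0.518 over all genes, so the sign at MII turned.

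Adult RiboMinus libraries called 4 of the 9 (Edc4 and Xrn1 lower, Xrn2 and Tut7 higher), with 28.1% of 15334 genes called (15.7% higher and 12.4% lower). With ERCC scaling 5 of the 9 were called, all lower (Dcp1a, Dcp1b, Dcp2, Edc4 and Xrn1), where 44.6% of all genes were called, 4.56% higher and 40.1% lower. With counts summed per tag, edgeR called none of the 9 and 0 of 20190 genes, with 3577 genes at an unadjusted p under 0.05. On single oocytes, not summed, edgeR without control tag AM1758 called 1 of the 9 and 2338 of 17014 genes. Without AM1759 it called 2 of the 9 and 2594 of 16740 genes. DESeq2 on the single oocytes of all tags called 5, where 4830 of 15334 genes were called. At p20, Dis3 cKO called Xrn1 alone, where 7.37% of 15882 genes were called, and Exosc10 cKO called none by edgeR, where 7.45% were called. In Exosc10 cKO, 2 of the 9 had an unadjusted p under 0.05 (Edc4 and Tut4), as did 3303 of 15882 genes. DESeq2 called Edc4 among the 9, and 1529 genes in all. The dcKO called 7 (Dcp1a, Dcp2, Edc4 and Xrn1 lower, Edc3, Tut4 and Tut7 higher), where 53.7% were called. Genes called higher were 26.6% and genes called lower 27.1% of all genes. With ERCC scaling 5 were called (Edc4 and Tut7 were not), where 38.2% of all genes were called.

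In dcKO against Dis3 cKO 7 of the 9 were called (51.5% of all genes), and against Exosc10 cKO 6 (49.2%). Dcp2, Edc3, Xrn1, Dcp1a and Tut4 were called in both, in the direction of dcKO against control. With ERCC scaling each comparison called 5, where 36.9% and 31.6% of all genes were called, and Dcp1a lost its call against Dis3 cKO (-0.20, adjusted p = 0.406). These comparisons share the dcKO libraries.

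**Figure D4:**
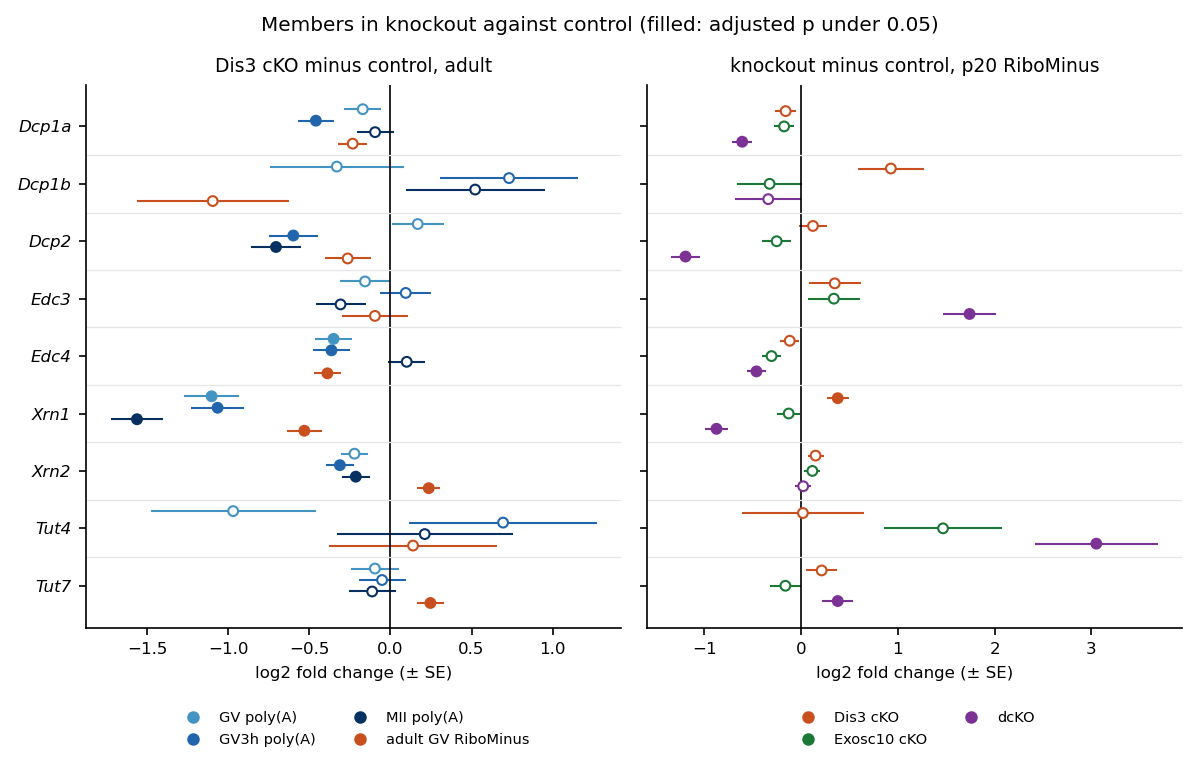
Log2 fold change (points) with its standard error (bars) of each gene in knockout against control: Dis3 cKO in adult oocytes and eggs (left) and the 3 knockouts at p20 (right). Filled points passed an adjusted p of 0.05 in edgeR. Xrn1 is filled and left of 0 in all 4 adult comparisons, and in dcKO Dcp2 and Xrn1 lie left of 0 while Edc3 and Tut4 lie right of it.

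From control GV oocytes to control MII eggs, 6 of the 9 were called (4 higher, 2 lower) when libraries were scaled to their gene counts. There 58.5% of all genes were called (22.7% higher and 35.8% lower), and Edc3, Edc4 and Tut7 did not pass. With ERCC scaling all 9 were called lower, where 87.8% of all genes were called, 0.334% higher and 87.5% lower. By gene counts, Xrn2 (128.5 to 179 CPM in GV, 270 to 374 in MII), Dcp1a (631 to 1119 and 1327 to 1986) and Dcp2 (188 to 322 and 373 to 537) were higher in MII eggs without overlap, and Xrn1 (42.05 to 76.2 and 67.8 to 131) was higher with overlap. These rises were 1.045 ± 0.10 SE for Xrn2 (adjusted p = 7.89e-15), 0.88 ± 0.13 for Dcp1a (adjusted p = 4.23e-08), 0.69 ± 0.18 for Dcp2 (adjusted p = 0.000808) and 0.63 ± 0.20 for Xrn1 (adjusted p = 0.00423), and with ERCC scaling all 4 turned into falls, of -0.81, -0.97, -1.175 and -1.23. Tut4 (-2.30, adjusted p = 0.00123) and Dcp1b (-1.08, adjusted p = 0.0497) were lower, and stayed so with ERCC scaling (-4.15 and -2.95). Dcp1b lost its call without the low-count filter (adjusted p = 0.122) and with only the 2 groups fitted (adjusted p = 0.0566).

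ERCC scaling moved the median of all genes from -0.27 to -2.12 in that comparison and from -0.26 to -1.505 in the same comparison of Dis3 cKO oocytes. The direction of Xrn2, Dcp1a, Dcp2 and Xrn1 thus depends on the scaling, and their place relative to the median of all genes is nearly the same in both by construction, since scaling shifts all genes together. In Dis3 cKO oocytes the step to MII called 4 of the 9 (63.3% of all genes were called): Dcp1a (0.95), Xrn2 (1.05) and Edc4 (0.62) higher and Tut4 (-1.12) lower by gene counts, against -0.285, -0.18, -0.58 and -2.165 with ERCC scaling. Dcp2 and Xrn1, called in control eggs, gave -0.19 (adjusted p = 0.204) and 0.17 (adjusted p = 0.294) in Dis3 cKO eggs. Of the 2, the difference between genotypes passed the test for Dcp2 only (-0.87, given above), and for neither with ERCC scaling.

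**Figure D5:**
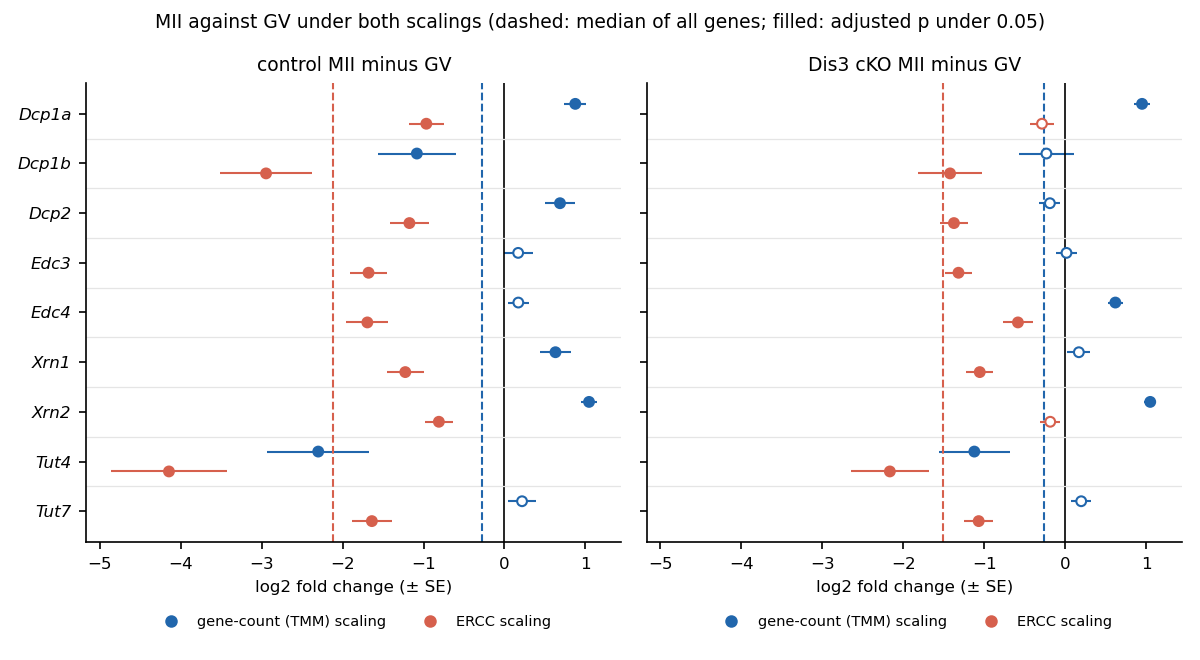
Log2 fold change (points) with its standard error (bars) from GV oocytes to MII eggs in control (left) and Dis3 cKO (right), with libraries scaled to gene counts (blue) or to ERCC RNAs (red). Dashed lines mark the median of all genes, -0.27 and -2.12 in control, and filled points passed an adjusted p of 0.05 in edgeR. In control, Dcp1a, Dcp2, Xrn1 and Xrn2 lie right of 0 with the first scaling and left of 0 with the second.

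Between adult and p20 control oocytes in RiboMinus libraries, Dcp1a alone was called (2323 to 3191 CPM in adult, 1579 to 3005 at p20, log2 difference 0.29 ± 0.11 SE, adjusted p = 0.0479), where 19.1% of 17267 genes were called. ERCC scaling turned it to -1.39 and moved the median of all genes to -1.69. The ERCC amount is given in the labels for poly(A) lysates only, so ERCC-scaled values across ages rest on an amount not given in the sources used here. The difference between the adult and p20 Dis3 effects called 2 of the 9 (Dcp1b and Xrn1, 9.32% of all genes called).

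The rest of the pathway was read from a list of 30 genes: 19 decapping cofactors and cap enzymes (the LSM ring, PATL proteins, DDX6, LSM14 proteins and others), 3 partners of XRN proteins and 8 genes of uridylation and other tailing. All 30 were tested in each fit. Dis3 cKO called 7 in GV oocytes (3 higher, 4 lower, 21.9% of all genes called), 10 in GV3h oocytes (6 higher, 4 lower, 38.6%) and 22 in MII eggs (12 higher, 10 lower, 42.1%). Adult RiboMinus libraries called 9 (4 higher, 5 lower, 28.1%), p20 Dis3 cKO none by edgeR (7.37%), Exosc10 cKO 2 (both lower, 7.45%) and dcKO 17 (7 higher, 10 lower, 53.7%). The step from control GV to MII called 25 (14 higher, 11 lower, 58.5%). These directions depend on the scaling. With ERCC scaling that step called 28, all lower (87.8% of all genes called). Dis3 cKO called 4 in GV (all lower, 20.6%), 7 in GV3h (5 higher, 2 lower, 28.2%) and 14 in MII (13 higher, 1 lower, 41.9%). Adult libraries called 19 (1 higher, 18 lower, 44.6%) and dcKO 10 (3 higher, 7 lower, 38.2%). Exosc10 cKO called 0 of the list by edgeR, and 364 of 15882 genes. Of all genes called, 6535 of 7284 were higher at MII and 6144 of 6843 lower in adult libraries. By gene-count scaling 4 of the 30 had an unadjusted p under 0.05 in Exosc10 cKO (3303 of 15882 genes), and DESeq2 called 3 (1529 genes). At p20 in Dis3 cKO, 3 of the 30 had an unadjusted p under 0.05 (3207 of 15882 genes), and DESeq2 called 1 (1510 genes). The median log2 fold change of the list was 0.0, -0.041 and 0.185 for Dis3 cKO in GV, GV3h and MII, 0.029 in adult RiboMinus libraries and 0.015 in dcKO, against 0.026 and -0.006 over all genes in the last pair. With ERCC scaling these medians of the list were -0.302, -0.08, 0.536, -0.523 and -0.058, so those of adult libraries and dcKO turned. Over all genes the medians with that scaling were -0.235, 0.043, 0.518, -0.521 and -0.083.

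The 8 genes of the list called in most of the 16 comparisons, by 8 to 11 calls each, were Ddx6, Eif4enif1, Lin28b, Cdkn2aipnl, Lsm1, Lsm14a, Nudt16 and Tent4b. Eif4enif1, which encodes the eIF4E-binding protein 4E-T of stored and decapped mRNA, fell in Dis3 cKO at GV (-0.26), GV3h (-0.325) and MII (-0.23, but 0.18 with ERCC scaling, adjusted p = 0.528), in adult RiboMinus libraries (-0.27), in Exosc10 cKO (-0.28) and in dcKO (-0.55). With ERCC scaling Eif4enif1 also lost its call at GV, at GV3h and in Exosc10 cKO (adjusted p = 0.0823, 0.206 and 0.639). Lin28b, whose protein binds let-7 precursors, fell at the same 3 stages (-0.50, -0.55 and -0.55), in adult RiboMinus libraries (-0.48) and in dcKO (-1.26), but at MII the value with ERCC scaling was -0.17 (adjusted p = 0.472). Ddx6, the RNA helicase that joins translational repression to decapping, gave opposite signs, with -0.66 at GV, 0.98 at GV3h, -1.07 at MII and 0.51 in dcKO, all 4 called by gene-count scaling, and the last not with ERCC scaling (0.395, adjusted p = 0.214). Lsm1, the subunit specific to the cytoplasmic LSM ring, rose at GV3h (0.94), at MII (0.54) and in dcKO (1.255).

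Nudt16, a decapping enzyme of the Nudix family, rose in Dis3 cKO at GV (1.04) and GV3h (1.885), in adult RiboMinus libraries (1.64) and in dcKO (2.40), and with ERCC scaling the GV call was lost (0.84, adjusted p = 0.129). Tent4b, a non-canonical poly(A) polymerase of nuclear RNA surveillance, fell at MII (-0.535, but -0.13 with ERCC scaling, adjusted p = 0.647), in adult RiboMinus libraries (-0.22) and in dcKO (-0.74). Lsm14a, a translational repressor of P bodies, fell at MII (-0.51, but -0.20 with ERCC scaling, adjusted p = 0.334) and in dcKO (-0.47). Cdkn2aipnl, whose protein has an XRN2-binding domain, was higher at GV3h (0.34), in adult RiboMinus libraries (0.27, but -0.295 with ERCC scaling, adjusted p = 0.183) and in dcKO (0.41) and lower at MII (-0.60). With ERCC scaling Cdkn2aipnl lost its call in these other 3 groups too (adjusted p = 0.162, 0.118 and 0.139).

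Genes whose level ran most like that of a member across the 71 poly(A) libraries were sought for the 3 members with the largest change from control GV to MII by gene-count scaling, by Pearson correlation of log2(CPM + 1) over 17374 genes. With ERCC scaling Xrn2 has the smallest of the 9 changes (-0.81). Xrn2 was matched most closely by Riok1 (r = 0.956), Bcl2l10 (r = 0.955) and Ccar1 (r = 0.951). Among the closest to Tut4 were Mdfic (r = 0.761) and Ifitm2 (r = 0.733). Among the closest to Dcp1b were Setd1b (r = 0.566) and Vgll4 (r = 0.560). The points share libraries, stage and genotype, so the values are a description.

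The starts of the 8 genes in the promoter table were compared with the CUT&Tag peak lists, which were called per library with 3 lists per group. H3K27me3 marks chromatin silenced by Polycomb, and a peak was counted within 1000 bases of the start. Dcp1b had an H3K27me3 peak in 3 of 3 lists of adult Dis3 cKO, 2 of 3 of p20 control, 1 of 3 of dcKO and 0 of 3 of adult control. The lists differ in length, with 224934 to 276316 peaks in adult Dis3 cKO, 151535 to 159895 in p20 control, 244827 to 299716 in dcKO and 87394 to 202628 in adult control, and 23.3% to 27%, 25.5% to 26.2%, 25.9% to 30.0% and 18.3% to 29.7% of genes had a peak in them. Tut4 had one in 1 of 3 lists of adult control, 1 of 3 of adult Dis3 cKO, 2 of 3 of p20 control and 0 of 3 of dcKO. Xrn1 had one in 1 list each of adult control and dcKO, Edc3 in 1 list of dcKO, and Dcp1a, Edc4, Xrn2 and Tut7 in none of the 12 lists.

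These shares are of 17492 protein-coding genes, and in the 12 lists 8.28% to 16.2% of starts lay inside a peak against 3.80% to 9.32% of points 50000 bases away. The difference between the groups of 3 lists was not tested. Libraries for RNA polymerase II (named by S2 and S5 in the titles) had a peak at the start of Edc4 in 1 list each of adult and p20 control, of Edc3 in 1 list of p20 control, and at no other of the 8 starts in 9 lists. In these lists 2.90% to 15.3% of genes had a peak, and 0.931% to 4.26% of starts lay inside one against 0.943% to 5.10% of points 50000 bases away.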

How the data were processed

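The authors deposited, for each library, a count of reads for every gene in whole numbers. Cutadapt 2.5, STAR 2.7.2a, SAMtools 1.9 and HTSeq 0.9.1 and the build mm10 are named in the submitters' processing notes without their settings. Per the labels' protocols, ERCC RNAs were added to poly(A) lysates; poly(A) RNA was captured on oligo-dT beads, so tail length can affect those counts. CUT&Tag libraries kept duplicate reads and were sampled to an equal depth, per the series' design text, and the authors' deposited peak lists give a total signal per peak, used here only to filter peaks within a list; SEACR is named in the submitters' processing notes.

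Counts were tested as deposited with edgeR 4.0.16 (quasi-likelihood F test, TMM scaling, filterByExpr, Benjamini-Hochberg adjustment over all genes, threshold 0.05, 2-sided). All poly(A) groups shared a fit, as did the 4 p20 groups and the adult pair, and all 6 RiboMinus groups for the comparisons of ages. SE is the log2 fold change over the square root of F, and an interval is the fold change ± 1.96 SE. CPM use TMM over all libraries of an assay. The script was tested on simulated counts. The 9 genes and the gene lists were chosen with earlier results of these data known. Named genes are the 9 members, the 8 of 30 pathway genes called in most comparisons and the 3 genes most correlated with each of 3 members, of which 2 are not reported here. Alternatives were ERCC scaling, DESeq2, no filter, fits of the compared groups alone, a replicate block, counts summed per tag and left-out libraries. The 3 IgG samples were not analysed here. Reads carry no molecular identifiers, so counts measure reads, not molecules. Same-numbered oocytes did not deviate together in every pair.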

Additional observations from a re-analysis of the deposited data

Results flagged for a closer look

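In each of 81 sets of a gene and a group of 4 to 10 libraries, the highest and lowest oocyte were compared with their neighbours by Dixon's criterion, which chance exceeds in about 1 set in 20. The highest Edc3 level among 8 control GV3h oocytes, 28.2 CPM in oocyte 4, stood apart from the others. The highest Tut7 level among 8 p20 dcKO oocytes, 135.4 CPM in the second oocyte of tag 1, stood apart as well.

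The effect of Dis3 cKO on Dcp2 differed from that in GV oocytes by -0.767 on the log2 scale in GV3h oocytes and by -0.873 in MII eggs (adjusted p = 0.0479 and 0.00425, edgeR's test of the difference). With the libraries numbered 1 to 8 alone, the MII difference was -0.455 (adjusted p = 0.128). The Dis3 effect in adult oocytes differed from that at p20 by -2.038 for Dcp1b (adjusted p = 0.014) and by -0.926 for Xrn1 (adjusted p = 0.000108) by the same test.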

How the results depend on the processing

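ERCC scaling shifts all genes together: it moved the median of all genes from -0.272 to -2.12 in control MII against GV, from -0.261 to -1.505 in Dis3 cKO and from -0.004 to -1.691 in adult against p20 controls. The folds that turned sign with it and were called under at least one of the scalings were, in control MII against GV, Dcp1a (-0.966), Dcp2 (-1.175), Edc3 (-1.68), Edc4 (-1.695), Xrn1 (-1.226), Xrn2 (-0.811) and Tut7 (-1.639). In Dis3 cKO MII against GV they were Dcp1a (-0.285), Edc3 (-1.317), Edc4 (-0.582), Xrn1 (-1.054), Xrn2 (-0.183) and Tut7 (-1.067), and without egg 15 these were -0.208, -1.276, -0.495, -0.979, -0.109 and -0.996. In adult against p20 controls they were Dcp1a (-1.393), Dcp1b (-0.92), Dcp2 (-1.469), Edc3 (-1.668), Edc4 (-1.689), Xrn2 (-1.514) and Tut7 (-1.565). The others were Xrn2 in Dis3 cKO at MII (0.137, and 0.211 without egg 15) and in adult RiboMinus libraries (-0.305), and Tut7 in the latter (-0.314). Another 22 folds, called under neither scaling, turned sign too. Leaving out dcKO tag 1 turned Tut4 in dcKO against Exosc10 cKO (-0.003). The causes were not tested.

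With ERCC scaling, the number of the 9 genes called moved from 5 to 3 (Dis3 cKO at GV3h), 3 to 1 (at MII), 4 to 7 (Dis3 cKO MII against GV), 1 to 0 and 1 to 3 (the Dis3 effect at GV3h and at MII against GV), 1 to 0 (p20 Dis3 cKO) and 1 to 8 (adult against p20 controls). Over all genes that scaling called, in the same order, 4896, 7284, 14538, 240 and 5237 of 17389, 968 of 15882 and 14869 of 17267. ERCC scaling without egg 15 gave 3 for Dis3 cKO at MII, 7 for Dis3 cKO MII against GV and 5 for the difference of effects at MII. It called 8579, 14373 and 7252 of 17365 genes there. Without the low-count filter the number was 0 for the GV3h difference of effects and p20 Dis3 cKO and 2 for adult Dis3 cKO. There 413 of 40237, 1089 of 35778 and 4626 of 34030 genes were called. Fits of the compared groups alone gave 3 for control GV3h against GV (2083 of 13785 genes called) and 2 for p20 Dis3 cKO (1566 of 13965). DESeq2 gave 1 for Exosc10 cKO (1529 of 15882). Counts summed per tag, with 2 sums per group, gave 0 for adult Dis3 cKO, p20 Dis3 cKO, adult against p20 controls and the adult minus p20 difference. These fits called 0 of 20190, 286 of 20911, 237 of 22815 and 70 of 22815 genes. For adult Dis3 cKO, fits of single oocytes without a control tag gave 1 (AM1758, 2338 of 17014 genes called) or 2 (AM1759, 2594 of 16740). Leaving out a knockout tag gave 3 (AM1713, 2856 of 16229) or 6 (AM1757, 6245 of 16710). Leaving out a tag at p20 gave 0 for Dis3 cKO without control tag 1 (489 of 17230 genes called) or either Dis3 cKO tag (618 of 17605 and 637 of 17652). It gave 1 for Exosc10 cKO without its tag 1 (1035 of 17171). These omissions, those of single RiboMinus libraries and ERCC scaling without egg 15 were chosen after seeing the data.

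Without 1 library the counts ranged from 3 to 5 in adult Dis3 cKO, 0 to 1 in p20 Dis3 cKO and in Exosc10 cKO, 6 to 7 in dcKO, 7 to 7 in dcKO against Dis3 cKO and 4 to 7 against Exosc10 cKO. Over all genes the number called ranged, in the same order, from 3834 to 4608, 949 to 1409, 924 to 1360, 8083 to 8713, 7710 to 8408 and 7342 to 8089. The poly(A) counts without MII Dis3 cKO egg 15 or without control GV oocyte 1 follow. They were 2 to 3, 5 to 5 and 3 to 4 for Dis3 cKO at GV, GV3h and MII. The stage comparisons gave 1 to 1, 6 to 6 and 4 to 5. The differences of effects gave 0 to 1 and 1 to 2. Over all genes, without egg 15 the number called was, in the same order, 4171, 7168, 7513, 680, 10418, 11261, 517 and 2685 of 17365. Without control GV oocyte 1 it was 3635, 7003, 7415, 554, 10144, 11085, 559 and 2185 of 17647.

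Poly(A) libraries share only a number in their titles (median r of same-numbered oocytes 0.138, -0.006 and -0.002). With that number as a replicate block and libraries 1 to 8 alone, the count for the difference of effects at MII was 0 (Dcp2 -0.434, adjusted p = 0.182), where 1695 of 16554 genes were called. Over the 72 tests of a gene in a comparison, called or not, 3 calls were gained and 3 lost. The same libraries without the block, an alternative chosen after seeing the data, gave -0.455 for Dcp2 there (adjusted p = 0.128), so its call is lost with the libraries left out, with or without the block. Over the 45 such tests at p20, the replicate block lost 1 call, Tut7 in dcKO (adjusted p = 0.0828). No more than 2 of 8 oocytes correlated best with their own number in any pair of groups.

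For peaks at gene starts in at least 2 of 3 lists, stronger peaks alone gave 1 gene in place of 2 (H3K27me3, p20 control) and 0 in place of 1 (adult Dis3 cKO). A window of 2500 bases gave 2 in place of 1 (adult Dis3 cKO), and 1 in place of 0 for H3K27me3 in dcKO and for RNA polymerase II in p20 control. The Xrn1 to Xrn2 and other paralogue ratios moved by less than 1 SD with another added count.

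Low counts limit Dcp1b, Tut4 and, in RiboMinus libraries, Edc3. Nothing says which oocytes share a female, so effects of animals and of genotype cannot be told apart where a tag carries the difference.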
